A study of Mus musculus with 12 samples.

Results

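Jun and Egr1 are immediate early genes, and their transcripts were followed here in mouse kidney cortex. Every probe annotated to either gene was taken, which gave 1 probe for Jun and 1 for Egr1, the 2 members among 6786 genes with a single symbol on the array. Both probes passed the filter on dim spots, which 4482 genes passed. The study set 3 control cortex samples against 3 menopausal cortex samples. Control is the only treatment named for the control samples, while VCD is named for the menopausal ones. VCD usually abbreviates vinylcyclohexene diepoxide, which destroys small ovarian follicles and is used to model menopause in mice. The sources used here give no strain, sex, age, dose or time since treatment, and do not say whether a sample was 1 mouse or a pool. The p-values below thus reflect how far these particular samples spread. Each of 12 arrays held a pair of samples, one in Alexa Fluor 546 and one in Alexa Fluor 647, and each sample was on 4 arrays, 2 with each dye.

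Immediate early genes are transcribed within minutes of a stimulus, without new protein being made first. Jun encodes a subunit of the transcription factor AP-1, which it forms with itself or with members of the Fos and ATF families, and which is activated by JNK kinases. Egr1 encodes a zinc finger transcription factor that is induced through ERK signalling and serum response factor and held back by NAB corepressors. In the kidney both transcripts are known to rise fast after ischaemia and other injury, and also with the handling of tissue before RNA is extracted.

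Jun is known to act on its own promoter through AP-1 and CRE-like sites, so its promoter is shown, as the RefSeq table for GRCm38.p6 gives it, on the minus strand at chr4:95052173-95052472. The window runs from 250 bases before the start of the gene through the first 50 bases from it. Capitals mark the only match to TGACATCA, a CRE-like AP-1 site.
Jun promoter: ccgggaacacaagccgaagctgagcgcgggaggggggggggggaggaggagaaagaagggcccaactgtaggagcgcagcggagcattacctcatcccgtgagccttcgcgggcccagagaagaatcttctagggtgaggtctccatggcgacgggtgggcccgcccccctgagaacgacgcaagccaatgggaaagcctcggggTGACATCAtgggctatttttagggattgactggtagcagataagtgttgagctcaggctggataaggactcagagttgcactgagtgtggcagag
The match lies 45 to 38 bases before the start. TGACATCA, searched on both strands, is in 3.62% of 32851 mouse promoters of this length. The AP-1 consensus TGACTCA, in 5.2% of them, and the CArG box bound by serum response factor, in 1.63%, had no match in the Jun window. These matches describe the sequence and were not measured as sites. A promoter was at hand for 22 of the 26 immediate early genes kept on this array, 28 promoters in all, since some genes have several. Of these 28, 3 held TGACATCA, those of Jun, Homer1 and Klf6. TGACTCA was in 1, that of Csrnp1, and a CArG box in 0. With a CArG box in 1.63% of all promoters, 0 of 28 does not set these genes apart. Only exact matches were searched, and sites more than 250 bases before the start lie outside the window. These counts thus do not say that a gene lacks such a site.

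The arrays limit the precision, since the share of spots brighter than their local background ran from 16.5% to 76.8% over the channels. A least-squares fit turned the 12 log2 ratios of a probe into 6 values, 1 per cortex sample, each relative to the mean of the 6, so a value says nothing of how abundant a transcript is next to another gene's. The defining markers of the labelled tissue were present: Lrp2, the endocytic receptor megalin of the proximal tubule, and the tubular enzymes Miox and Gldc were above background in 12 of 12 measurements of each group, and Gatm in 11 and 12. Those 4 genes were the members of the 20-gene proximal tubule list that were on the array. Gene names rest on a numbering of the spots that was chosen from the data. With it, different probes of 1 gene had a rank correlation of brightness of 0.309 over 1766 pairs of probes, against 0.03 with the order of the scanner tables. This comparison uses the same data as the choice, so it is no independent check, and no further order was compared here. The labels of the scanner tables give the groups. The sample codes in the scan names matched these labels, 1 code to 1 label. In the deposited value table, 0 of 12 columns matched the array they are labelled with best, with correlations from -0.16 to 0.10. The columns were closest to 12 different arrays, at correlation sizes from 0.50 to 0.79. This mismatch was not resolved.

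Jun was measured close to background. Its spots were above background, by more than 2 SDs of the local background, in 6 of 12 control measurements and in 9 of 12 menopausal ones. By sample this was 2 of 4 measurements in Control 1, 1 of 4 in Control 2 and 3 of 4 in Control 3. Among the menopausal samples it was 2 of 4 in Menopausal 1, 3 of 4 in Menopausal 2 and 4 of 4 in Menopausal 3. The brightest measurement was of Control 3 in Alexa Fluor 546, at 30.7 background SDs. By dye, Jun exceeded background in 9 of 12 measurements in Alexa Fluor 546 and 6 of 12 in Alexa Fluor 647. Neither channel exceeded background on 3 arrays, and all 3 held Control 2. On the array of Control 2 with Control 3 the Jun spots lay under their local background, at -5.69 and -2.86 background SDs. The value of Control 2 therefore rests mostly on spots with little signal, and that array also enters the value of Control 3.

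Egr1 was dimmer. It exceeded background in 6 of 12 control and 5 of 12 menopausal measurements, so it passed the filter through the control group, the group with the higher mean. Control 3 was the only sample above background in 4 of 4 measurements, between 2.78 and 14.8 background SDs. Each of the other samples was above background in 1 or 2 of 4, and no menopausal measurement exceeded 3.02 background SDs. These readings also depend on dye and array. Egr1 exceeded background in 7 of 12 measurements in Alexa Fluor 546 and 4 of 12 in Alexa Fluor 647. The reading of 14.8 came from the channel with the most spots above background, 76.8%. On the array of Menopausal 2 with Control 3, Egr1 read 3.00 and 2.78 background SDs. On 4 arrays neither channel exceeded background, 2 of them with Control 2.

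**Figure D1:**
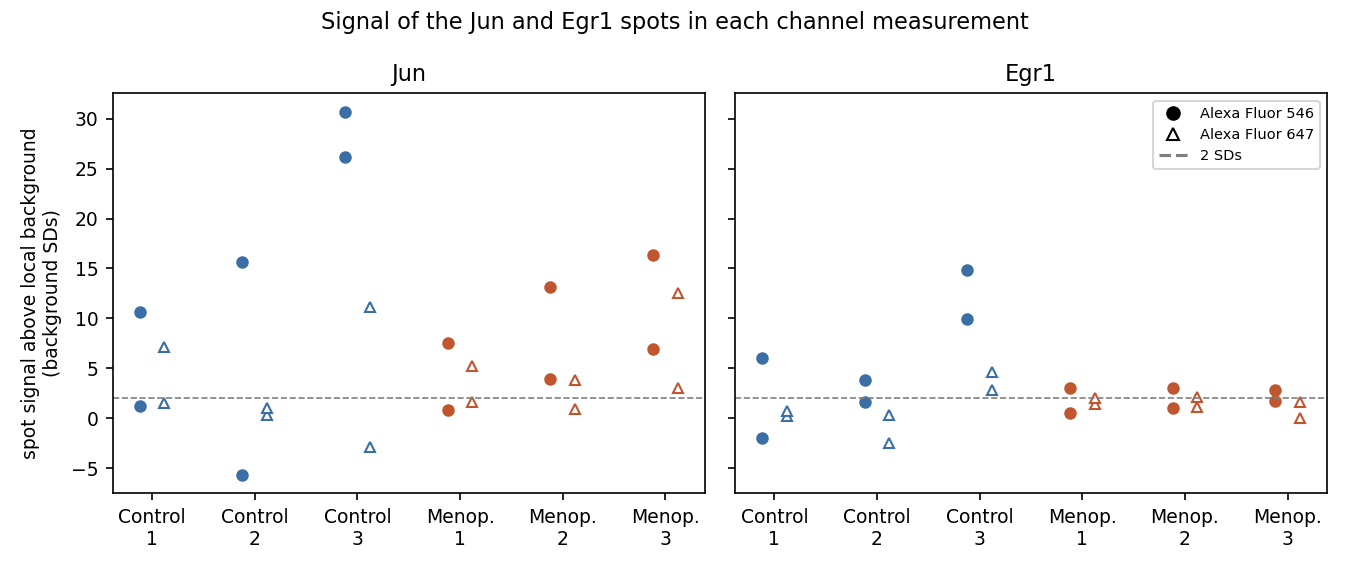
Signal of the Jun and Egr1 spots above their local background, in background SDs, for each cortex sample, with circles for Alexa Fluor 546, triangles for Alexa Fluor 647 and a dashed line at the 2 SDs that count as above background. Control samples are blue and menopausal samples orange. Control 3 holds the brightest measurements of both genes, and most Egr1 points lie near or under the line.

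The comparison of menopausal with control cortex asks whether the labelled treatment goes with a change in these transcripts, and neither gene passed the test. Jun read 0.02 in Control 1, 0.0025 in Control 2 and 0.30 in Control 3, on the log2 scale relative to the mean of the samples. It read -0.21 in Menopausal 1, -0.15 in Menopausal 2 and 0.04 in Menopausal 3. The technical standard error of each of these Jun values, from the spread between arrays, was 0.067. Control 3 stands highest, Menopausal 3 lies above the other two control samples, and the groups overlap. The mean was 0.11 ± 0.17 (SD, n = 3) in control and -0.11 ± 0.13 (SD, n = 3) in menopausal cortex. The difference in Jun, menopausal minus control, was -0.22 ± 0.10 (SE) on the log2 scale, a ratio of 0.86, with a 95% interval from -0.45 to 0.02. The adjusted p from limma was 0.921, and an exact two-sided permutation test of the 6 values gave p = 0.3, where 3 against 3 samples cannot go below 0.1.

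For Egr1 the values were -0.20 in Control 1, 0.01 in Control 2 and 0.40 in Control 3. The menopausal values of Egr1 were 0.19, -0.16 and -0.24 in Menopausal 1, 2 and 3. The technical standard error of each Egr1 value was 0.098. Control 3 was again highest, Menopausal 1 came next, and Control 1 lay among the low menopausal samples, so the groups overlap on both sides. Means were 0.07 ± 0.30 (SD, n = 3) in control and -0.07 ± 0.23 (SD, n = 3) in menopausal cortex. The difference in Egr1 was -0.14 ± 0.16 (SE) on the log2 scale, a ratio of 0.907, with a 95% interval from -0.50 to 0.22. It did not pass the test, with an adjusted p from limma of 0.954 and an exact two-sided permutation p of 0.6.

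**Figure D2:**
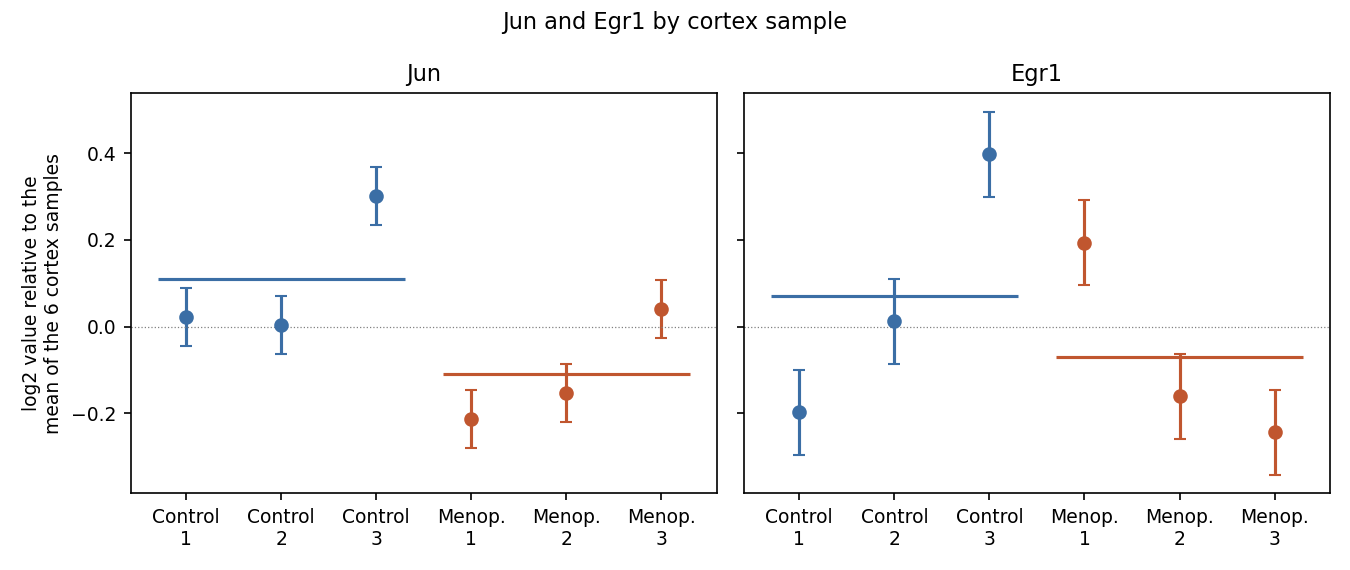
Jun and Egr1 in each cortex sample, as log2 values relative to the mean of the 6 samples, with bars for the technical standard error between arrays and horizontal lines for the group means. Control 3 is the highest sample for both genes, at 0.30 for Jun and 0.40 for Egr1, and the groups overlap.

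In the same limma fit 0 of 7777 probes passed an adjusted p of 0.05, that is 0% of them, and the smallest adjusted p was 0.921. At an unadjusted p under 0.05 the fit called 387 probes, 4.98% of those tested. Jun stood just outside these, with an unadjusted limma p that 6.93% of the probes undercut, and Egr1 well outside, with 41% of probes below it. Fewer cells of a type and less RNA per cell cannot be told apart in such cortex RNA.

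In this design the group difference of a probe is the mean of the 6 arrays that held 1 sample of each group, 3 in each dye orientation, with each sample on 2 of them. For Jun, the log2 ratio of menopausal over control was -0.59 for Menopausal 1 against Control 3 and -0.53 for Menopausal 2 against Control 3. The other Jun ratios were -0.23 for Menopausal 2 against Control 1, -0.06 for Menopausal 1 against Control 2, -0.0016 for Menopausal 3 against Control 2 and 0.10 for Menopausal 3 against Control 1. The widest Jun ratios are thus the pair of arrays that held Control 3, and 5 of 6 ratios lie below 0. Both arrays with Control 2 gave Jun ratios close to 0.

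Egr1 had the same layout over these arrays. Its ratio was -0.59 for Menopausal 2 against Control 3 and -0.33 for Menopausal 1 against Control 3. On the remaining 4 arrays the Egr1 ratio ran from -0.01 to 0.10, with 3 of the 4 just below 0. The median gap between copies of a probe on the same array, over the 12 arrays, was 0.04 log2 units for Jun and 0.03 for Egr1. The largest copy gap was 0.23 for Jun and 0.23 for Egr1, as wide as or wider than the group differences. The ratios of the 12 arrays spread around their fitted values with a residual SD of 0.13 for Jun and 0.27 for Egr1, a measure unlike the copy gap.

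**Figure D3:**
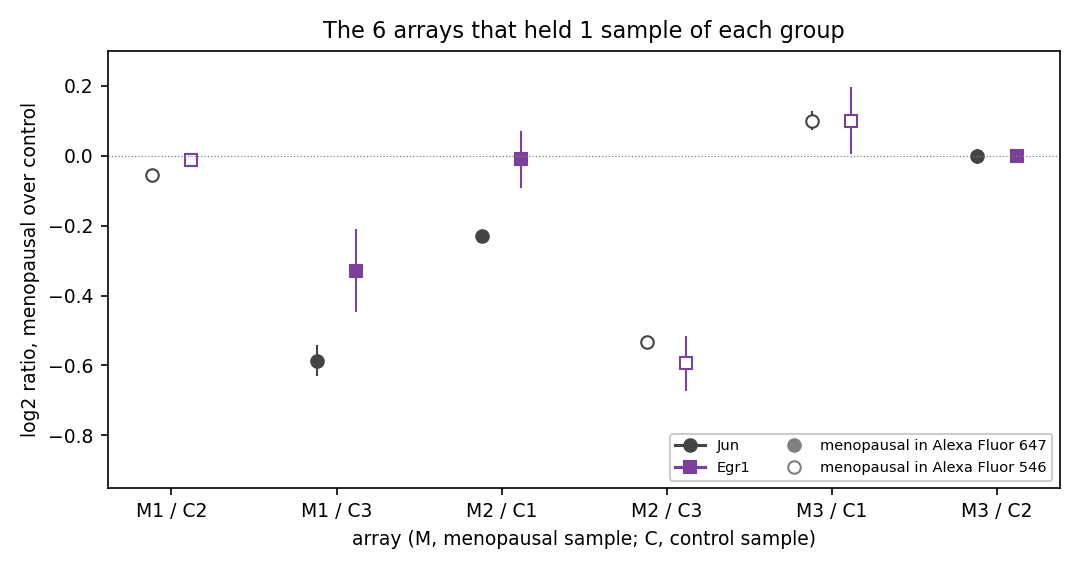
Log2 ratio of menopausal over control for Jun (circles) and Egr1 (squares) on each of the 6 arrays that paired the groups, filled where the menopausal sample carried Alexa Fluor 647, with lines joining the copies of the probe. The ratios against Control 3 run from -0.33 to -0.59, and all others from -0.23 to 0.10.

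Without Control 3 and its arrays the Jun difference was -0.08 and the Egr1 difference was 0.07, which turns the direction of Egr1. Control 3 was the highest of the 6 samples for 13% of all probes tested. With no subtraction of background the Jun difference was 0.04, which turns its direction, and with plain subtraction it was -0.48. The Egr1 difference was -0.30 without Control 1, -0.07 without Menopausal 2, -0.28 with median centring in place of loess and -0.02 with no subtraction of background.

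Samples of the same group were then compared with each other against the spread between arrays, which is a technical error. Jun spanned 0.30 log2 units among the control samples and 0.25 among the menopausal ones. Egr1 spanned 0.60 and 0.44, and 5.97% of the probes had a wider control range than Egr1. Neither gene passed limma's moderated F test: the adjusted p among control samples was 0.275 for Jun and 0.140 for Egr1, and among menopausal samples 0.420 for Jun and 0.311 for Egr1. The same test called 83 probes (1.07%) among control samples and 29 (0.373%) among menopausal samples. Hbb-b1, the beta globin of red blood cells, had its brighter probe called in both groups, while its other probe was called among control samples and had an adjusted limma p of 0.137 among menopausal samples. The calls among menopausal samples went to 0 with no subtraction of background, with scaled arrays or without the array of Menopausal 1 and Menopausal 3.

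Egr1 and the red blood cell markers had the same samples at the top. The brighter Hbb-b1 probe read 0.73 in Control 3 and 0.72 in Menopausal 1, and -0.17, -0.77, 0.06 and -0.56 in Control 1, Control 2, Menopausal 2 and Menopausal 3. Alas2, the first enzyme of haem synthesis in red cells, read 0.29 in Control 3, 0.11 in Menopausal 1 and between -0.20 and 0.0024 in the other samples. Both markers on the array, of 7 listed, passed the filter, and their median ran from -0.41 to 0.51 in control and from -0.38 to 0.41 in menopausal samples. Their part in the Egr1 values was not tested. Jun did not share that order, since Menopausal 1 was its lowest sample.

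Jun and Egr1 were set beside their own families. Of the 20 listed AP-1 genes 8 were on the array and 5 passed the filter: Jun, Fos, Atf3, Mafg and Atf4. Their differences, menopausal minus control, had a median of -0.18 on the log2 scale, with 4 below 0 and 1 above, while 49.6% of all probes tested lay below 0 around a median of 0.0011. None passed the test over all probes, with adjusted p from limma of 0.921 or more. The median of the 5 was -0.10 without Control 3 and -0.02 with no subtraction of background. Fosl1, Fosl2 and Atf2 were above background in at most 2 of 12 measurements of a group and were not tested.

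Atf3, a stress-induced member that represses as a dimer with itself, read 0.07, 0.06 and 0.13 in the control samples and -0.04, -0.10 and -0.13 in the menopausal samples. Every menopausal Atf3 value lies below every control value, and the difference was -0.18 ± 0.05 (SE). Atf3 was also close to background, above it in 6 of 12 control and 7 of 12 menopausal measurements. Mafg, a small Maf protein with no activation domain of its own, had control values of 0.16, -0.0034 and 0.14 and menopausal values of -0.11, -0.10 and -0.09. The groups of Mafg did not overlap either, with a difference of -0.20 ± 0.08 (SE). Groups that do not overlap, lower in menopausal cortex, were found for 5.9% of all probes tested, and higher for 6.18%.

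Fos, the partner of Jun in the classical AP-1 dimer, was well measured, above background in 11 of 12 measurements of each group. Its values were 0.01, 0.08 and 0.04 in control and 0.17, -0.16 and -0.14 in menopausal samples, so Menopausal 1 was highest for Fos and lowest for Jun. The Fos difference was -0.09 ± 0.10 (SE), with groups that overlap. Atf4, the transcription factor of the integrated stress response, was the AP-1 gene with a difference above 0, at 0.10 ± 0.07 (SE). In the EGR list of 6 genes, Egr1 and its corepressor Nab1 were on the array. Nab1 read from -0.33 to 0.27 in control and from -0.01 to 0.12 in menopausal samples, with a difference of 0.08 ± 0.14 (SE).

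Other immediate early genes gave no common direction. Of 52 listed, 22 were on the array and 19 passed the filter, 9 with a difference below 0 and 10 above, around a median of 0.01. Gadd45g, a growth arrest and stress gene, had the widest difference of the 19, at -0.53 ± 0.25 (SE). Its values were -0.18, 0.34 and 0.63 in control and -0.54, -0.51 and 0.26 in menopausal samples, so the groups overlap. Csrnp1, a nuclear protein induced by AXIN1, had a difference of -0.25 ± 0.10 (SE), and Control 3 was its highest sample too, at 0.35. Its spots exceeded background in 7 of 12 measurements of each group. For Irf1, a transcription factor of interferon responses, the difference was -0.20 ± 0.13 (SE). None of the 19 passed the test.

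Over all 3 immediate early lists, 26 genes of 78 passed the filter, 14 below 0 and 12 above. Groups did not overlap for 4 of the 26 with menopausal lower, namely Atf3, Mafg, Csrnp1 and, chosen after its values were seen, Socs3, a feedback inhibitor of cytokine signalling, and for 0 with menopausal higher. Over all probes tested the shares were 5.9% lower and 6.18% higher. Socs3 exceeded background in 6 of 12 measurements of each group. With Jun and Egr1 left out, 12 of 24 genes lay below 0 and 12 above, around a median of -0.02, and Control 3 was the highest sample for 7 of the 24, against 13% of all probes.

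**Figure D4:**
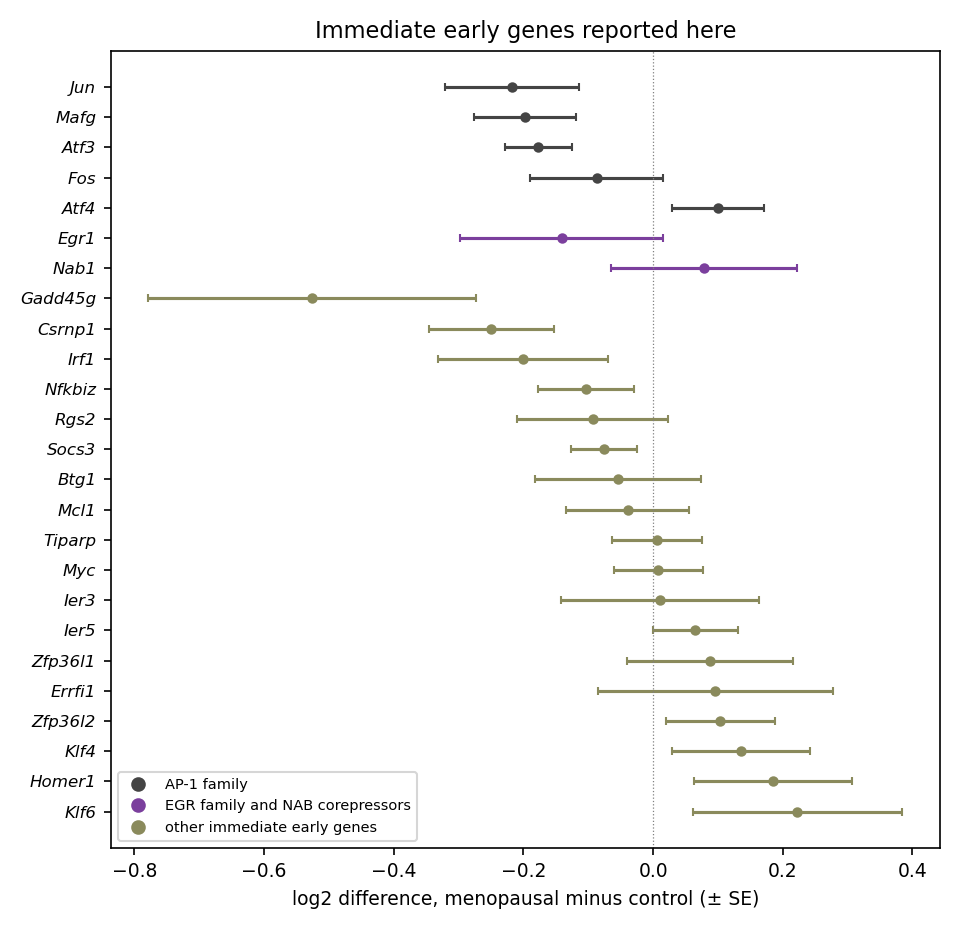
Difference between menopausal and control cortex on the log2 scale, with its standard error from limma, for the immediate early genes with a kept probe that are reported here (3 samples per group). Values lie on both sides of 0, from -0.53 for Gadd45g to 0.22 for Klf6, and none passed the test.

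The kinases and factors that act upstream of Jun and Egr1 had a median close to 0 under the main normalization. Of 54 listed, 22 were on the array and 15 passed the filter, with 8 below 0, 7 above and a median of -0.01. That median lay further below 0 with global loess or with median centring. Mapk9, a JNK that phosphorylates Jun, had a difference of -0.22 ± 0.17 (SE). Araf and Braf, the Raf kinases at the head of the ERK cascade, had differences of 0.12 ± 0.09 (SE) and -0.09 ± 0.06 (SE), and Map2k2, a kinase that activates ERK, 0.07 ± 0.06 (SE). Map2k2 exceeded background in 4 of 12 control and 6 of 12 menopausal measurements, so it passed the filter through the group where it is higher. None passed the test.

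Genes reported as targets of JUN or EGR1 had a median difference of -0.08 over the 14 kept of 44 listed, 10 below 0 and 4 above, and none passed the test. That median was 0.03 with median centring in place of loess, which turns its direction, -0.01 with array weights, -0.0088 with no subtraction of background and -0.02 without the array of Control 2 and Menopausal 3. Cd44, the hyaluronan receptor, read 0.18, 0.09 and 0.10 in control and -0.10, -0.10 and -0.17 in menopausal samples. The groups of Cd44 did not overlap, at a difference of -0.25 ± 0.06 (SE), but its spots exceeded background in 4 of 12 control measurements against 9 of 12 menopausal ones. F3, tissue factor, which starts blood clotting, had a difference of -0.25 ± 0.07 (SE) with groups that did not overlap. For Timp3, an inhibitor of matrix metalloproteinases, the difference was -0.39 ± 0.20 (SE), and its groups overlap. The dimmer kept probe of Timp3 had a difference of -0.12 ± 0.15 (SE). The 3 targets with groups that did not overlap and menopausal lower were Cd44, F3 and Atf3. The 1 with menopausal higher was Sod1, a superoxide dismutase, chosen after its values were seen. Among all probes tested 5.9% were of the first kind and 6.18% of the second.

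Heat shock and handling genes were listed because immediate early transcripts also respond to tissue handling. Of 20 listed, 10 passed the filter, 9 with a difference above 0 and 1 below, with a median of 0.12, and none passed the test. These counts, like those of the other lists, take the brightest kept probe of a gene. That probe of Hsp90aa1, a cytosolic chaperone named after its values were seen, lay at 0.02, while 5 of its 7 kept probes lay below 0, down to -0.20. Hspa8 and Hspd1, chaperones of the cytosol and the mitochondrion, had differences of 0.30 ± 0.18 (SE) and 0.22 ± 0.15 (SE), and Txnip, an inhibitor of thioredoxin, 0.29 ± 0.16 (SE). Hspb1, a small heat shock protein, was the one below 0, at -0.15 ± 0.07 (SE). The list median was highest in Menopausal 3, at 0.23, and lowest in Control 2, at -0.21, and it was below 0 without either of those samples. Its part in the Jun and Egr1 values was not tested.

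The probes most like each gene over the 6 sample values were ranked by Pearson r, as a description of 6 points that share arrays. Only the 5620 kept probes with a single symbol were eligible, of 7777 kept. The highest r of that many probes over 6 points is high by selection alone, so it does not show shared regulation. For Jun these were Rnf6, an E3 ubiquitin ligase (r = 0.991), the dimmer probe of Rgs2, a regulator of G protein signalling (r = 0.982), Chmp5 (r = 0.971), Akr1c14 (r = 0.960) and Unk (r = 0.960). Rnf6 read 0.04, -0.02 and 0.26 in control and -0.21, -0.11 and 0.05 in menopausal samples, nearly the values of Jun. The brighter Rgs2 probe had r = 0.721 with Jun. For Egr1 they were Itsn2, an endocytic scaffold (r = 0.999), Mtdh (r = 0.965), Iws1 (r = 0.965), Zdhhc2 (r = 0.960) and Vps41 (r = 0.956). Itsn2 spanned less than Egr1, from -0.10 in Menopausal 3 to 0.17 in Control 3. Jun and Egr1 had r = 0.391 with each other, and Fos had r = -0.06 with Jun and r = 0.654 with Egr1.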

How the data were processed

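Kidney cortex RNA of 6 samples was compared on 12 arrays with 2 colours. The authors deposited spot and background intensity in both channels, raw per the file headers, and a table of log2 ratios with no normalization stated in the sources used here. That deposited log2 table was used only to check its columns. Of 15600 probes, each in 2 copies, 9191 had a single symbol in the platform annotation, 254 several and 6155 none listed here.

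With limma 3.58.1 in R 4.3.3, spot medians were corrected by normexp (offset 50) and log2 ratios normalized by print-tip loess. It was chosen because under global loess 31.8% of the variance of the group difference lay between print blocks. The share of 0.498% here is low by construction, since print-tip loess fits each block separately. Spots marked abnormal had weight 0, and Alexa Fluor 546 was read as the shorter of both wavelengths. Probes above background by 2 SDs in at least 6 of 12 measurements of a group were kept. Sample values from a fit with a dye term were tested 3 against 3 (intensity trend, Benjamini-Hochberg over 7777 probes), and the functions were tested on simulated data.

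Named were all genes of the AP-1 and EGR lists, up to 4 genes of each other list by smallest unadjusted p (of marker lists, those beside a result), and the 5 probes most like each member. A gene that this rule named is not reported here. The members and lists were chosen with earlier results of these data known. Alternatives covered background, normalization, filters, left-out samples and arrays, slides and blocks.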

Additional observations from a re-analysis of the deposited data

How the results depend on the processing

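Over all alternatives (35 for Jun, 34 for Egr1, which was not kept when both groups had to exceed background) no adjusted p from limma fell below 0.504 for Jun or 0.684 for Egr1. Jun lay below 0 in 34 and Egr1 in 33, and the exceptions were Jun with no background subtraction (0.040) and Egr1 without Control 3 (0.067). Leaving out 1 sample or array gave -0.30 to -0.080 for Jun and -0.30 to 0.067 for Egr1. Same-numbered samples correlated at -0.36, -0.51 and -0.11. They never met on an array, unlike the other pairs across groups, so this check cannot say whether the numbers pair them. With a replicate block the Jun difference stayed -0.22 ± 0.08 (SE), the Egr1 difference -0.14 ± 0.17 (SE), and 0 probes were called. The slide range and repeat mark could not move either difference, since all 6 arrays across groups shared both. Nor could the filters, the replicate block, arrays taken as replicates, or leaving out an array within a group. The counts of 34 and 33 thus include alternatives whose direction was fixed. Treating arrays as replicates called 5 probes. Calls among control samples were 24 with no background subtraction, 46 with no filter and 40 to 90 without 1 array. Calls among menopausal samples were 14 with global loess, 64 with median centring, 0 with no background subtraction, 9 with plain subtraction, 19 with spot means, 0 with scaled arrays, 13 with no filter and 0 to 21 without 1 array. The AP-1 median was -0.020 with no background subtraction, -0.049 with plain subtraction and -0.23 to -0.10 without 1 sample or array. Without 1 sample or array the medians ran from -0.18 to 0.13 for the EGR list, -0.078 to 0.039 for other immediate early genes, -0.047 to 0.28 for heat shock, -0.12 to -0.019 for targets and -0.059 to 0.040 for upstream genes. The upstream median was -0.10 with global loess and -0.068 with median centring. The target median was -0.055 with global loess, 0.028 with median centring, -0.0088 with no background subtraction, -0.11 with plain subtraction, -0.034 with scaled arrays, -0.11 with no filter, -0.051 with both groups above background, -0.011 with array weights and -0.11 without ratios where neither channel exceeded background, an alternative chosen after seeing the data, as was a normexp offset of 1 (Jun -0.24, Egr1 -0.16). The cause of these shifts was not tested. Signal near background limits both genes.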
